A study of Mus musculus with 21 samples.

Results

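Mouse embryos that had been enucleated and had received a transferred genome as interphase zygotes were compared with embryos that kept their own genome and had only been exposed to a drug. The 2 arrays titled as interphase nuclear transfer formed one group and the 3 arrays titled as drug treatment controls the other, 5 of the 21 arrays of the series, chosen by title and not by any measured value. Interphase transfer embryos had lost their genome and received another at the interphase zygote stage, and were collected 48 to 50 h after hCG, the hormone injection that times ovulation. Drug controls had been exposed to nocodazole, which depolymerises microtubules and holds cells in mitosis, when they reached mitosis, and were collected at the same 48 to 50 h. Each array was made from 20 pooled embryos grown in KSOM medium. The labels give the interphase transfer embryos the stage of zygotes and the drug controls the stage of embryos. The sources used here do not give the strain, the donor cell, the time from transfer to collection or any drug given to the interphase transfer embryos. Arrays used as reference were 3 of interphase zygotes (24 to 28 h), 3 of zygotes that nocodazole held in mitosis (32 to 34 h), 2 of 2-cell embryos, 4 of M phase transfer embryos and 2 of genomeless embryos, whose genome was removed and not replaced (all 48 to 50 h).

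A mouse zygote starts life on RNA that the growing oocyte stored. During the first cell cycles most of this maternal RNA is degraded, by deadenylases and other decay factors, and around the 2-cell stage the embryo's own genome is switched on, with ribosome production and other housekeeping functions among the first large programmes. A transferred nucleus has to be brought into this programme by factors in the recipient egg, some of which sit in the zygote's nuclei during interphase and are released into the cytoplasm when the nuclear envelope breaks down at mitosis. The series' title names the question of recipient nuclear factors, and the comparison asks how far RNA in embryos of interphase recipients differed from that in drug-exposed embryos of equal age.

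Signal differed widely between the arrays of this comparison. Mean background-subtracted signal was 535.14 on interphase transfer array A and 12.79 on array B, against 107.23 to 124.51 on the drug control arrays. A detection p below 0.01 was reached by 5816 and 3412 probes in interphase transfer and by 6442 to 6849 in drug controls. Drug control arrays B and C, on different chips, differed with an SD of only 0.12 on the log2 scale, against 0.28 to 1.48 for 17 other pairs within groups, so they were averaged and counted as 1 sample. The contrast was therefore 2 samples against 2. Its p-values and standard errors rest on a spread pooled over the samples of all 8 groups, and that spread can be technical. The groups were unlike in this, with a median SD per gene of 0.51 in interphase transfer and 0.20 in drug controls. Interphase transfer B and drug control C lay on 1 chip, and the other 3 arrays each lay on another. The drug controls correlated with each other at 0.952 over genes and with 2-cell embryos at 0.958 on average. The 2 interphase transfer arrays correlated at 0.674 with each other and at 0.513 on average with drug controls. All levels are log2 of normalised array signal, which sets equal distributions on all arrays, so that a smaller RNA content of the whole embryo cannot be seen. Fewer embryos with a transcript and less of it in each cannot be told apart in pools.

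Interphase transfer embryos and drug controls differed in RNA for a large share of genes. In the fit of all groups with limma, 2267 of 8527 genes (26.6%) passed an adjusted p of 0.05, 811 of them higher (9.51%) and 1456 lower (17.1%). An unadjusted p below 0.05 was reached by 3126 genes, and the median difference over all genes was 0.02. With chip as a fixed block in the fit, no gene passed and 404 had an unadjusted p below 0.05, while the median standard error rose from 0.52 to 1.71. With all 21 arrays entered separately, drug controls B and C and mitotic zygotes A and C were no longer averaged, which ties their chips together. The same block then gave 2104 genes, 748 higher and 1356 lower, with a median standard error of 0.54. But this counts near-identical arrays as independent. On the chip that held both groups, interphase transfer B minus drug control C had the sign of the full contrast for 2267 of the 2267 genes, although both arrays are also in that contrast. Scaling arrays by their medians in place of equal distributions gave 15 higher and 816 lower genes, a share of 1.81% higher among the calls against 35.8%. Under median scaling the 10th to 90th percentile range of interphase transfer B was 1.01, against 3.49 to 3.78 on the drug control arrays, and after quantile normalisation it was 4.37 against 4.13 to 4.22. The balance turned in other settings. Leaving out the dim arrays gave 1487 higher and 1394 lower genes (51.6% higher), and setting undetected values at each array's floor gave 1227 higher and 789 lower (60.9% higher).

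Genes that switch on at the 2-cell stage were the main group below the drug controls. These activated genes were defined on other arrays, as the 1127 genes called at least 2-fold higher in 2-cell embryos than in mitotic zygotes, a step in which 27.7% of all genes were called, 13.9% higher and 13.8% lower. Of them, 881 were lower in interphase transfer (78.2%, against 17.1% of all genes) and 1 was higher. Their median log2 difference was -2.33, with -2.42 on array A and -2.27 on array B, and -2.35 between the 2 arrays that shared a chip. Both interphase transfer arrays lay below all 3 drug control arrays for 1039 activated genes (92.2%), against 32.0% of all genes. Array A detected 38.9% of activated genes and array B 22.3%, whereas the drug controls detected 97.6% to 99.0%. Of the 881 lower genes, 561 were undetected on both interphase transfer arrays, 217 were detected on 1 and 103 on both. Setting all undetected genes to their lower bound brought the median difference of the list to -1.67.

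At the median, activated genes in interphase transfer lay at the level of the zygote, which was near background. The median activated gene was at 6.56 on array A and 6.35 on array B, below their lowest detected levels of 6.92 and 8.04. In interphase zygotes it was at 6.57 to 6.59, with lowest detected levels of 6.49 to 6.64. A rise that stayed below the lowest detected level of an array could not be seen. The median activated gene on array A lay -0.01 from the mean of the interphase zygotes and on array B -0.05, while drug controls lay 2.25 to 2.34 above it. Against the interphase zygotes, 76 activated genes were higher in interphase transfer (6.74%, against 5.43% of all genes) and 85 were lower (7.54%, against 12.0%). Genomeless embryos had array medians of -0.10 and -0.03, and M phase transfer embryos, whose recipients were in mitosis, 1.94 to 2.13. On the genomeless arrays too, the median activated gene was below the lowest detected level. The plot of list medians by array shows this split for each array.

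**Figure D1:**
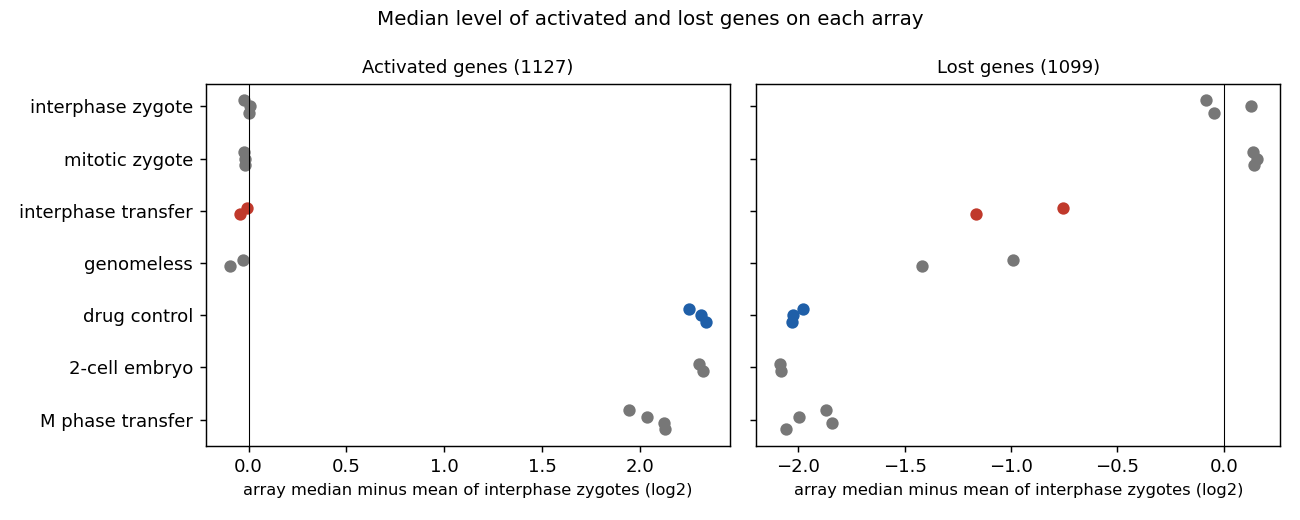
Median level of the activated genes (left) and lost genes (right) on each array, as the log2 difference from the mean of the interphase zygotes; each point is 1 array and rows are groups. For activated genes both interphase transfer arrays (red) lie at -0.01 and -0.05 and the drug controls (blue) at 2.25 to 2.34; for lost genes they lie at -0.75 and -1.16 against -2.03 to -1.98.

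The 14 genes named for the size of their decrease were all activated genes, as were 60.5% of all lower genes. The 6 given with a bound were chosen as undetected on both interphase transfer arrays, so their background level there follows from the choice. Timd2, a cell-surface receptor gene, had log2 levels of 13.10, 13.14 and 13.16 in drug controls A, B and C and was undetected at 6.21 and 6.26 on the interphase transfer arrays. It was thus at least 50.1-fold lower (limma, adjusted p = 2.98e-06). Its levels in interphase zygotes, 5.96 to 6.37, were as low. Ppp2cb, which encodes a catalytic subunit of protein phosphatase 2A, was at 12.85, 12.67 and 12.64 in drug controls and undetected at 6.28 on each interphase transfer array, at least 38.7-fold lower (adjusted p = 2.60e-07). The groups did not overlap for either gene, which were chosen by size of difference. Both interphase transfer arrays lay below all drug controls for 32.0% of all genes. Ctsb (the lysosomal protease cathepsin B) was at least 31.8-fold lower, Alppl2 (an alkaline phosphatase of early embryos) at least 31.1-fold, Mfsd5 (a membrane transporter) at least 27.5-fold and Cmtm4 at least 25.2-fold, with adjusted p from 1.30e-08 to 3.06e-06.

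Other large decreases could be given as measured differences because 1 interphase transfer array detected the gene. Mtres1, a mitochondrial RNA-binding factor, had levels of 7.26 and 6.40 in interphase transfer and 13.07, 13.18 and 13.19 in drug controls, a log2 difference of -6.30 ± 0.37 (SE, n = 2 against 2; adjusted p = 1.58e-07). It was also below the interphase zygotes, by -2.74 (adjusted p = 0.000177). Guca1a, a guanylate cyclase activator, was at 7.47 and 6.28 against 12.83, 13.04 and 13.09 (-6.07 ± 0.62, adjusted p = 9.26e-06). Slc5a6, the sodium-dependent vitamin transporter, was at 7.54 and 6.24 against 12.72, 12.52 and 12.67 (-5.77 ± 0.40, adjusted p = 5.79e-07). Every drug control array was above both interphase transfer arrays for these genes, which were chosen by size, and for 32.0% of all genes. Gja1 (connexin 43, a gap junction protein of the embryo), Zscan5b (a zinc finger protein), Pheta1 (an endosomal trafficking adaptor), Urod (an enzyme of haem synthesis) and Gtf2f2 (a subunit of the general transcription factor TFIIF) fell by 5.30 to 5.68 on the log2 scale. Array A alone detected each of these 8 genes in interphase transfer.

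The start regions of 3 genes in each direction are shown because these genes lie at the ends of the comparison. They rank first by measured difference, or by the lower bound where a whole group was undetected, as it was for Timd2 and Ppp2cb. The regions run from 250 bases before to 50 bases after the annotated start in RefSeq (build GRCm38.p6), 5′ to 3′ on the strand of the gene. Capitals mark every match on either strand to TATAAA (the TATA box), CCAAT (the CCAAT box) or GGGCGG (the GC box), and neighbouring or overlapping matches run together. The lower genes are Mtres1 (chr10:43540969-43541268, strand -), Guca1a (chr17:47400557-47400856, strand -) and Slc5a6 (chr5:31048513-31048812, strand -), the last with 2 starts listed, of which the first is shown.
Mtres1: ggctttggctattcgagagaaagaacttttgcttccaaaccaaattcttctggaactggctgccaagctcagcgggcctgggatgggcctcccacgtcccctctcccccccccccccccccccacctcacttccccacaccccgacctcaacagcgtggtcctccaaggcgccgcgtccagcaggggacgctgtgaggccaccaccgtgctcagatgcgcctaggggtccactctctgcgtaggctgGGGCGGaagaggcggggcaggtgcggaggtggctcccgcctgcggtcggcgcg
Guca1a: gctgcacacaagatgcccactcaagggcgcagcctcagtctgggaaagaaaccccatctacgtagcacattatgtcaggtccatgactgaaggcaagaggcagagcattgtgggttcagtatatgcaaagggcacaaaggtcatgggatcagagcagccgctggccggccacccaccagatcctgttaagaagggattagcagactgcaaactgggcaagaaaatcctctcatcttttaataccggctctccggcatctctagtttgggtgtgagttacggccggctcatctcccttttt
Slc5a6: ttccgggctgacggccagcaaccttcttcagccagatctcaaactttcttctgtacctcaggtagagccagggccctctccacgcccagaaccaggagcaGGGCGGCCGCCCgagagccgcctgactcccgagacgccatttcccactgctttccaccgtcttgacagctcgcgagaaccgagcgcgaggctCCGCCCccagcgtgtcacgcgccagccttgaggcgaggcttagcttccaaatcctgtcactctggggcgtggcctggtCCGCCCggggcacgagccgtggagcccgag
The higher genes, whose values follow further on, are Caln1 (chr5:130369208-130369507, strand +), Ss18l1 (chr2:180042233-180042532, strand +) and Hs2st1 (chr3:144570167-144570466, strand -).
Caln1: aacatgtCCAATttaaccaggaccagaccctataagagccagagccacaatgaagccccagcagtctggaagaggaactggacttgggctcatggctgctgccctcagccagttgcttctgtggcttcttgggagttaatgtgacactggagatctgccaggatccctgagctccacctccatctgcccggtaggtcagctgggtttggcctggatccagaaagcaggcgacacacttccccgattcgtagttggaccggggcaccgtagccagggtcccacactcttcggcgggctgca
Ss18l1: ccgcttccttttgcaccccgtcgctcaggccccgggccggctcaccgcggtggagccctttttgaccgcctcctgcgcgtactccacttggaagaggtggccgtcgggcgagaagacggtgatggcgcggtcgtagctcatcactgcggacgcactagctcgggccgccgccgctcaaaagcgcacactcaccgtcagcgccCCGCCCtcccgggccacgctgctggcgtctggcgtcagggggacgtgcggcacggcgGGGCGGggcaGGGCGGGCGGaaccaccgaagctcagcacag
Hs2st1: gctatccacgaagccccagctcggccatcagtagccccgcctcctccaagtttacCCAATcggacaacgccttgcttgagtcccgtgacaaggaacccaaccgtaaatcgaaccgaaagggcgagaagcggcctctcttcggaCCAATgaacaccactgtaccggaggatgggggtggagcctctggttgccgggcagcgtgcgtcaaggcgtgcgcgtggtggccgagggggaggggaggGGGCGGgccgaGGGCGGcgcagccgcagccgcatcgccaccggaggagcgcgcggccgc
Guca1a held none of the 3 motifs, Mtres1 had 1 GC box and Slc5a6 had 4, while Caln1 had 1 CCAAT box, Hs2st1 2 CCAAT boxes and 2 GC boxes, and Ss18l1 4 GC boxes. TATAAA was in none of the 6. Of 27025 start regions in the table, 14.2% held TATAAA, 37.9% CCAAT and 35.9% GGGCGG. Among 6956 tested genes with a start region the shares were 7.95%, 39.1% and 63.2%. Among 724 activated genes that were lower they were 7.04%, 35.1% and 63.5%, and among 311 lost genes that were higher 7.40%, 32.2% and 64.3%. A match describes letters in these windows and not a bound factor.

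Among transcripts known to mark the 2-cell stage in mice, part was lower. Of 17 tested genes, 8 fell (47.1%, against 17.1% of all genes) and none rose, and the median was -1.63 (-1.70 on array A, -0.82 on array B). It was -0.46 between the arrays that shared a chip and -0.45 with undetected genes at their bound. Pramel7, a gene also expressed in naive pluripotent cells, was at 11.95, 11.94 and 11.84 in drug controls and undetected at 6.10 and 6.05 in interphase transfer, at least 21.7-fold lower (adjusted p = 3.21e-08). Its 3 zygote values, 5.97 to 6.08, lay as low. The homeobox gene Obox6 was at least 8.04-fold lower (adjusted p = 0.000497) and the translation factor gene Eif1a at least 2.55-fold lower (0.00346), and neither was detected in interphase transfer. Kdm5b, a demethylase of histone H3 lysine 4, fell by 2.32 ± 0.46 on the log2 scale (0.00186). Zfp352, a 2-cell gene, had levels of 6.11 and 7.67 in interphase transfer, both undetected, and 7.04 to 7.30 in drug controls, and did not pass (adjusted p = 0.741).

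Genes for making ribosomes had the largest share of lower genes among the 25 lists. Of 62 tested genes of ribosome biogenesis, 47 fell and none rose (75.8%, against 17.1% of all genes), with a median of -2.62 (-2.56 on array A and -2.70 on array B). Polr1e, a subunit of RNA polymerase I, which transcribes the ribosomal RNA genes, was at 11.50, 11.13 and 11.14 in drug controls and undetected at 6.13 and 6.0 in interphase transfer, at least 14.3-fold lower (adjusted p = 5.73e-06). Polr1c, shared by RNA polymerases I and III, was at least 12.3-fold lower (5.60e-05), and Wdr74, a factor of ribosome assembly, at least 11.4-fold (2.60e-06). The RNA helicase gene Ddx47 fell by 5.06 ± 0.73 on the log2 scale (0.000184) and the nucleolin gene Ncl by 3.82 ± 0.41 (1.46e-05), each detected on array A alone. Against interphase zygotes, 19 of the 62 were lower as well and none was higher. The same list was lower by a median of -2.86 in genomeless embryos and of -0.41 in M phase transfer embryos, measured against the same drug controls.

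Ribosomal protein genes were low to a different degree on the 2 arrays. Of 47 tested, 19 fell (40.4%, against 17.1% of all genes) and none rose. The median of -1.78 came from -2.53 on array A and -0.78 on array B. Rps3 had levels of 8.52 and 10.55 in interphase transfer, both detected, and 13.22, 13.08 and 13.20 in drug controls (-3.65 ± 0.69, adjusted p = 0.00136). Interphase zygotes were at 6.71 to 7.22, so Rps3 was above the zygote level by 2.55 (adjusted p = 0.0121) and below the drug controls. Rps9 was at 8.69 and 9.30 against 12.99, 12.77 and 12.77 (-3.88 ± 0.64, 0.000533), and Rpl7 at 7.08 and 5.93 against 10.69, 10.01 and 10.06 (-3.85 ± 0.59, 0.000316). Array B did not detect Rpl7, whose difference was -2.80 with undetected values at the floor. Rps3a1 was at 6.29 and 9.59 against 11.11 to 11.75 (-3.43 ± 0.94, 0.0146), and its call was lost without interphase transfer A, leaving array B, and without drug controls B and C. Of the 47 genes, 10 were higher than in interphase zygotes (21.3%, against 5.43% of all genes) and none was lower.

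Translation and transcription factors showed a mixed decrease. Among 47 translation factors 20 fell (42.6%, against 17.1% of all genes) and 1 rose (median -1.31). Eif2b4 and Eif2b3, subunits of the exchange factor that recharges the initiation factor eIF2, had log2 differences of -4.86 ± 0.37 (adjusted p = 1.05e-06) and -3.91 ± 0.43 (1.70e-05), and both were also below the interphase zygotes, by -4.02 and -4.37. Eif3l, a subunit of eIF3, fell by 3.63 ± 0.34 (4.16e-06) and lay -0.17 from the zygotes. Of 61 genes for RNA polymerase II and general transcription factors, 26 fell (42.6%) and 5 rose (8.20%) (median -0.86). Ccnh, the cyclin of the TFIIH kinase, was at least 9.03-fold lower (5.60e-05), and Nelfe, a subunit of the elongation factor NELF, fell by 4.04 ± 0.52 (6.74e-05). Of 56 spliceosome genes, 20 fell (35.7%) and 1 rose (median -0.90). Cdc5l, a core factor of the splicing complex, fell by 4.45 ± 0.55 (5.40e-05). With undetected values at the floor the differences were -3.92 for Eif2b4, -2.81 for Eif2b3, -3.185 for Eif3l, -3.21 for Nelfe and -3.45 for Cdc5l.

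Protein turnover, folding and energy genes fell in part. In the proteasome list 16 of 38 genes fell (42.1%, against 17.1% of all genes) and 1 rose (median -0.95). Psmb5, a catalytic subunit, was undetected at 6.13 and 6.09 against 10.54, 10.86 and 10.98, at least 9.53-fold lower (adjusted p = 9.83e-07). Psmc4, an ATPase of the regulatory particle, fell by 4.36 ± 0.62 (0.000165). Among 32 chaperone and unfolded protein genes 12 fell (37.5%) and 1 rose (median -0.86). The 4 largest of these decreases included those of the chaperonin subunits Cct4, Cct8 and Tcp1. Cct4 was at least 20.2-fold lower (4.15e-05), and the differences were -4.33 ± 0.63 for Cct8, -4.27 ± 0.66 for Tcp1 and -2.94 ± 0.54 for the co-chaperone gene Stip1 (0.000191 to 0.0011). Of 63 genes of oxidative phosphorylation, 18 fell (28.6%) and 2 rose (median -0.86), with the complex I subunit Ndufs8 at least 7.32-fold lower (4.26e-05).

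Of 18 glycolysis genes, 3 rose (16.7%, against 9.51% of all genes) and 1 fell (5.56%, against 17.1%), with a median of 0.70 (0.51 on array A and -0.03 on array B). Gapdh, a central glycolytic enzyme often used as a loading control, was at 11.63 and 12.34 in interphase transfer and 8.81, 8.54 and 8.65 in drug controls, a log2 difference of 3.29 ± 0.36 (adjusted p = 2.02e-05). It was also above the interphase zygotes by 1.96 (adjusted p = 0.00134). Tpi1 was higher by 2.55 ± 0.59 (0.00566) and Ldhb by 1.91 ± 0.55 (0.0189), the latter lost when interphase transfer A or any drug control sample was left out. Slc2a3, a glucose transporter, was undetected in interphase transfer and at least 3.12-fold lower (0.000795). Median scaling ended the calls of all 4 genes.

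**Figure D2:**
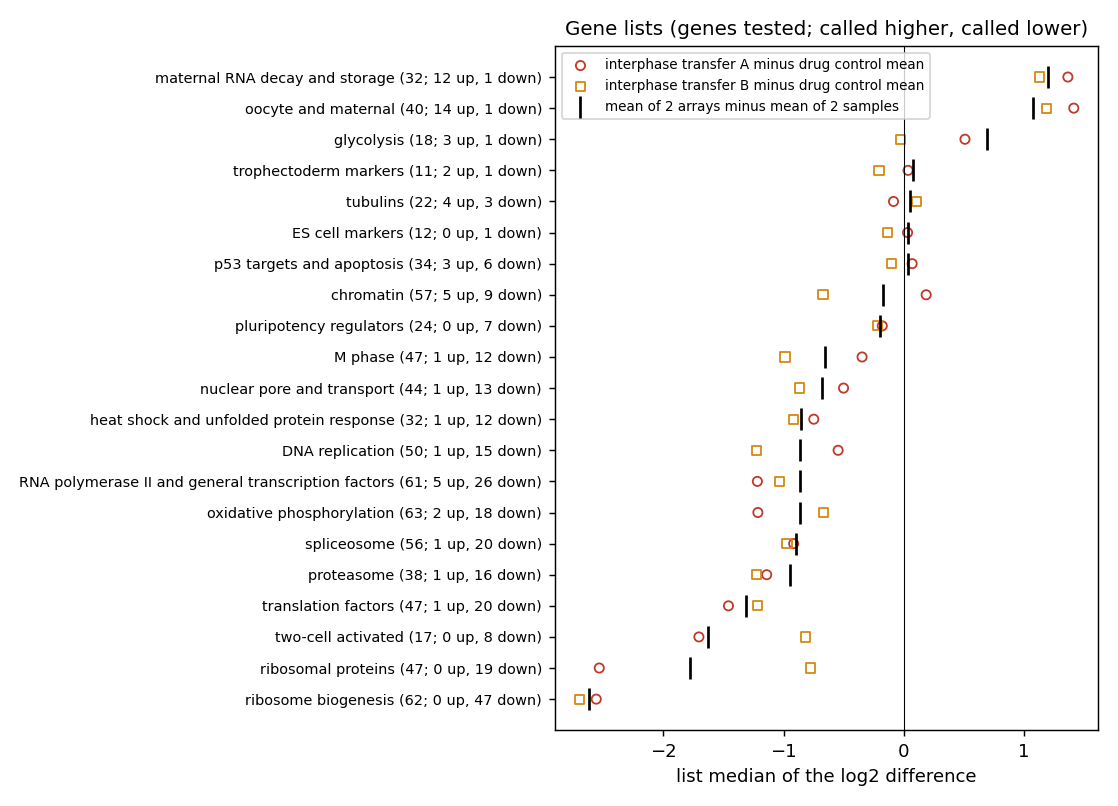
Median log2 difference of each gene list with at least 11 tested genes, for interphase transfer A (circles), B (squares) and the contrast of group means (bars), with the number of genes tested and called beside each name. Ribosome biogenesis is lowest at -2.62, and maternal RNA decay and storage (1.20) and oocyte genes (1.07) are highest.

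Cell cycle genes were lower in part. Of 50 DNA replication genes, 15 fell (30%, against 17.1% of all genes) and 1 rose (median -0.86), and of 47 M phase genes 12 fell (25.5%) and 1, Cdc25b, rose (median -0.66). Cdk1, the kinase that drives entry into mitosis, was undetected at 6.29 and 6.10 in interphase transfer and at 10.22, 10.46 and 10.09 in drug controls, at least 6.81-fold lower (adjusted p = 0.000171). Aurka, a kinase of the mitotic spindle, was at 7.69 and 7.14 against 10.79, 11.16 and 11.21 (-3.57 ± 0.33, 3.66e-06). Aurka was not detected on array B, and its difference was -3.12 with undetected values at the floor. In interphase zygotes it was at 11.20 to 11.88, so it was below both. Mcm6, a subunit of the replicative helicase, fell by 3.77 ± 0.70 (0.00117), and Cdc6, which loads that helicase, was at least 6.89-fold lower (0.00057). Of 22 tubulins and their folding factors, 4 rose (18.2%, against 9.51% of all genes) and 3 fell (13.6%, against 17.1%). Tubg2, a gamma-tubulin, was at 13.10 and 13.08 against 10.49, 10.46 and 10.43 (2.62 ± 0.43, 0.000534), and Tubb4b, a beta-tubulin, at 10.31 and 9.71 against 13.14, 13.02 and 12.90 (-3.03 ± 0.66, 0.00366). Of 44 genes for the nuclear pore and transport, 13 fell (29.5%) and 1 rose. Rangap1, which activates the GTPase of the transport cycle, fell by 4.20 ± 0.67 (0.000398), and Nxf1, the mRNA exporter, was at least 5.38-fold lower (9.94e-06).

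Most regulators of pluripotency did not pass, and those that did were lower. Of 24 pluripotency regulators 7 fell and none rose (29.2% lower), with a median of -0.19. Klf5, a Krüppel-like transcription factor of early embryos and ES cells, was undetected at 6.48 and 6.18 in interphase transfer and at 11.72, 11.25 and 11.19 in drug controls, at least 15.9-fold lower (adjusted p = 3.60e-06). Klf2, of the same family, was at least 7.60-fold lower (1.82e-06), and Nr5a2, a nuclear receptor, fell by 4.01 ± 0.59 (0.00023). Nanog, a core factor of the inner cell mass, was undetected at 5.90 and 6.56 against 7.93, 9.25 and 9.32, at least 2.18-fold lower (0.00755), a call lost without drug controls B and C. Pou5f1 (Oct4) was at 8.55 and 6.12 against 6.86 to 6.94 and Sox2 at 6.73 and 8.50 against 6.28 to 6.36, and neither passed (0.727 and 0.0589). Smarca4, the ATPase of the BAF chromatin remodelling complex, was at 8.63 and 5.99 against 8.94, 8.27 and 8.26 and did not pass (0.165). Of 57 chromatin genes, 9 fell (15.8%) and 5 rose (8.77%), near the 17.1% and 9.51% of all genes. Mta2, of the NuRD complex, was at least 8.56-fold lower (1.05e-06) and the deacetylase gene Hdac1 at least 5.49-fold lower (2.23e-05). Among 11 trophectoderm genes, Tead4, a transcription factor of that lineage, was at least 5.69-fold lower (2.53e-06), and Dab2 and Cdx2 were higher, Cdx2 at 7.45 and 8.26 against 6.45 to 6.58. The call of Cdx2 (at least 2.23-fold, 0.0282) was lost without interphase transfer B and without either drug control sample.

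RNA that embryos normally lose by the 2-cell stage was higher in interphase transfer for a share of the genes concerned. These lost genes were the 1099 called at least 2-fold lower in 2-cell embryos than in mitotic zygotes. Of them 367 were higher in interphase transfer (33.4%, against 9.51% of all genes) and 9 were lower. The median log2 difference was 0.95, with 1.24 on array A and 0.57 on array B, and 0.56 between the arrays sharing a chip. Both interphase transfer arrays lay above all 3 drug control arrays for 596 lost genes (54.2%, against 25.1% of all genes). Array A detected 77.6% of lost genes, array B 45.8% and the drug controls 54.1% to 59.3%. With median scaling 10 lost genes were higher.

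At the median, lost genes in interphase transfer lay between interphase zygotes and drug controls. The median lost gene was at 8.38 on array A and at 7.62 on array B, the latter below that array's lowest detected level of 8.04. Whether the higher signal was RNA kept from the egg was not tested. Lost genes on interphase transfer arrays A and B lay at medians of -0.75 and -1.16 below the interphase zygotes, drug controls at -2.03 to -1.98 and genomeless embryos at -0.99 and -1.42. Of the 1099 genes, 296 (26.9%) were higher than drug controls and not called against interphase zygotes, and 42 (3.82%) were higher than drug controls and lower than zygotes. A further 355 (32.3%) were lower than in zygotes and not called against drug controls, 368 (33.5%) were called in neither comparison, and 29 (2.64%) were above both groups. These classes use the same interphase transfer arrays on both sides. In all, 406 lost genes were lower than in interphase zygotes (36.9%, against 12.0% of all genes).

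**Figure D3:**
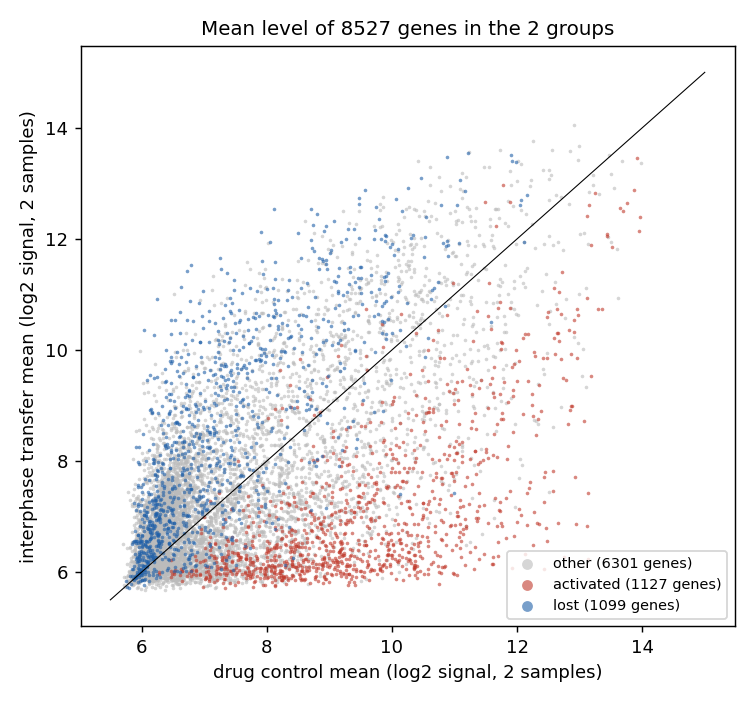
Mean log2 level of each of the 8527 genes in drug controls (horizontal) and interphase transfer (vertical), each the mean of 2 samples, with equality as a line. Activated genes (red) form the cloud below the line, many at the background level near 6 in interphase transfer, and lost genes (blue) lie mainly above it.

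Oocyte genes included several with RNA far above the drug controls. Of 40 tested, 14 rose (35%, against 9.51% of all genes) and 1, Khdc3, fell. The median was 1.07 (1.41 on array A, 1.18 on array B). Bmp15, a growth factor secreted by oocytes, was at 12.89 and 12.20 in interphase transfer and 9.01, 8.46 and 8.34 in drug controls, a log2 difference of 3.84 ± 0.47 (adjusted p = 4.64e-05). Interphase zygotes were at 13.27 to 13.85 and genomeless embryos at 13.13 and 12.45. Uchl1, a deubiquitinating enzyme abundant in oocytes, was at 12.53 and 12.10 against 9.08, 9.07 and 9.06 (3.24 ± 0.57, 0.000798), and Nlrp9c, of an oocyte gene family, at 10.68 and 9.59 against 7.51, 6.72 and 6.61 (3.05 ± 0.50, 0.000462). Bcl2l10, a BCL2 family gene of oocytes, was higher by 2.82 ± 0.64 (0.00481). Not every oocyte gene followed. Gdf9, the partner growth factor of Bmp15, was at 13.33 and 12.26 against 12.21, 12.11 and 12.11 (adjusted p = 0.262). Zp3, a coat protein gene, was at 8.85 and 9.87 against 9.22 to 9.81 (0.899). Nlrp5, of the same family as Nlrp9c, was at 10.93 and 11.70 against 9.75 to 9.99 (0.0868). Tdrd12, at 8.39 and 11.47 against 6.52 to 6.91, was called (0.0306), but not without interphase transfer B or without either drug control sample.

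Genes that act on maternal RNA itself were also among those higher. Of 32 tested genes of RNA decay and storage, 12 rose (37.5%, against 9.51% of all genes) and 1, Cnot10, fell (median 1.20). Cnot6l, a deadenylase of the CCR4-NOT complex that removes poly(A) tails in eggs, was at 12.31 and 10.62 in interphase transfer and 7.25, 7.30 and 7.24 in drug controls (4.20 ± 0.50, adjusted p = 4.10e-05). It was at 10.44 to 11.11 in interphase zygotes and 11.59 and 11.47 in genomeless embryos. Cpeb1, which binds stored mRNA with its tail kept short, was at 10.69 and 11.36 against 7.84, 7.28 and 7.47 (3.42 ± 0.54, 0.000399), and Igf2bp3, an mRNA-binding protein, at 13.07 and 12.09 against 10.04, 9.67 and 9.70 (2.72 ± 0.61, 0.00466). Tent4a, a poly(A) polymerase, was higher by 2.72 ± 0.80 (0.0222), and was not called without interphase transfer A or without either drug control sample. Btg4, an adaptor that brings the deadenylase to mRNA, was at 9.88 and 11.23 against 8.73 to 9.13 and did not pass (0.127). Median scaling ended the calls of the oocyte and RNA decay genes named here, from Bmp15 to Tent4a, and of Tubg2 above. The plot of 19 genes on each array places interphase transfer with the zygotes for several of these genes and apart from both groups for others.

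**Figure D4:**
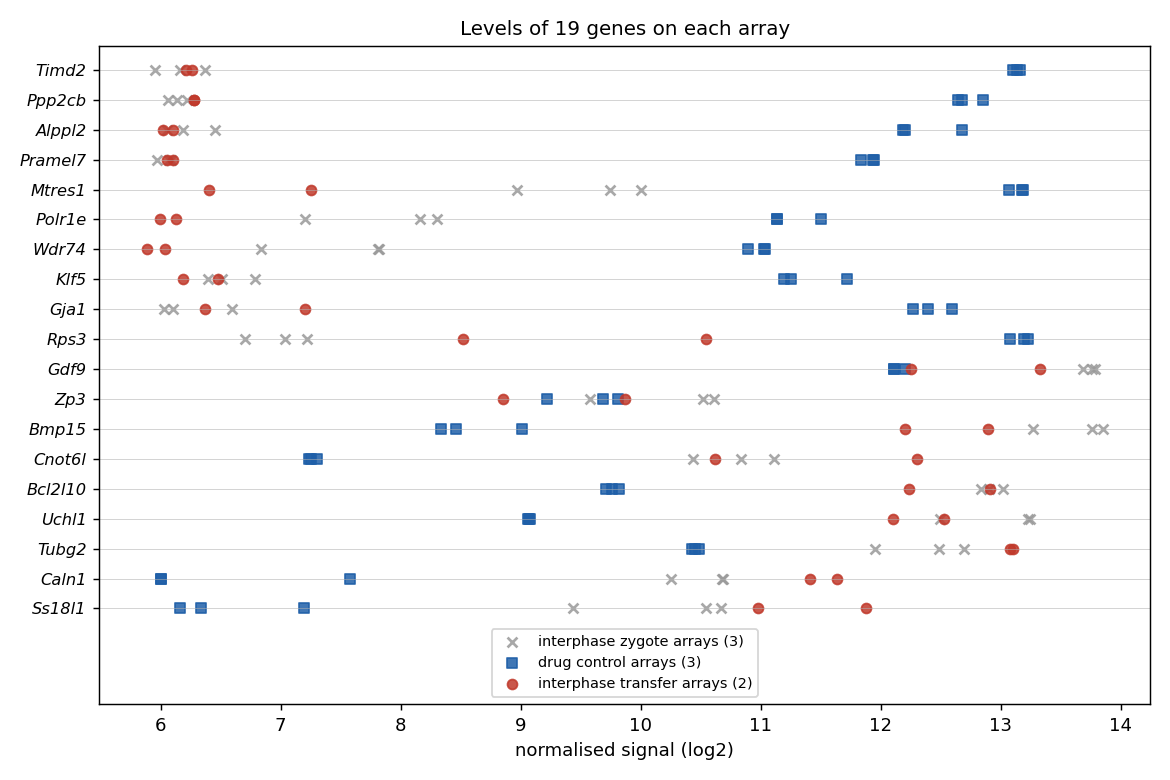
Log2 normalised signal of 19 named genes on the arrays of interphase zygotes (grey crosses), drug controls (blue squares) and interphase transfer (red circles). Timd2 to Klf5 lie below 7.3 in interphase transfer and above 10.8 in drug controls, Bmp15 to Ss18l1 lie higher in interphase transfer, and Rps3 lies between zygotes and drug controls.

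The largest increases were not in the preset lists, with the exception of Cnot6l. Caln1, a calcium-binding protein gene, was at 11.41 and 11.64 in interphase transfer and 7.58, 6.0 and 6.0 in drug controls, with drug control A alone detecting it, a log2 difference of 4.74 ± 0.65 (adjusted p = 0.000121). Ss18l1, a subunit of BAF complexes in neurons, was at 11.88 and 10.97 against 7.19, 6.16 and 6.33 (4.71 ± 0.64, 0.000108). Hs2st1, which sulfates heparan sulfate, was at 10.77 and 11.25 against 6.69, 6.41 and 6.25 (4.49 ± 0.68, 0.000262). The groups were apart by over 3 log2 units in each of these genes, which were chosen by size. Of all genes, 25.1% had both interphase transfer arrays above all drug controls. Sytl4 (an effector of Rab27 in secretion), Psenen (a gamma-secretase subunit), Abhd4 and Hsd3b7 (a steroid dehydrogenase) were higher by 4.21 to 4.49, and Psenen was not called without drug control A. Undetected in all drug controls were Fndc3a (at least 18.7-fold higher), Arf3 (a GTPase of the Golgi, at least 14.3-fold), Rbfox1 (a splicing regulator, at least 12.6-fold), Rit2 (a GTPase, at least 11.9-fold), Senp6 (a SUMO protease, at least 9.71-fold) and Smco4 (at least 9.64-fold), with adjusted p from 6.28e-06 to 0.0122. Smco4 was not called without drug control A or without drug controls B and C. Median scaling ended the calls of all of these higher genes but Fndc3a, Rit2 and Senp6.

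A set of higher genes lay above the zygotes too. Against interphase zygotes 1490 of 8527 genes passed (17.5%), 463 of them higher. Of the 811 genes higher than drug controls, 261 were also higher than interphase zygotes, 508 were not called against them and 42 were lower. Of the 261, 29 were lost genes and 1 was an activated gene, which leaves 231 in neither list. Their median difference was 2.02 from drug controls and 2.01 from interphase zygotes, and its direction was fixed by the choice of genes above both groups. Both comparisons use the same interphase transfer arrays. Both of these arrays detected 208 of the 231, against 708 of all 811 higher genes. In genomeless embryos the same genes lay at a median of 1.69 above drug controls, which had also served to choose them. Against genomeless embryos 4 of the 231 were called higher in interphase transfer, as were 0.575% of all genes. Hs2st1 was at 7.13 to 7.65 in interphase zygotes and 10.41 and 11.87 in genomeless embryos. Senp6 was at 6.48 to 6.88 in interphase zygotes, 8.12 and 9.73 in genomeless embryos, and 8.16 and 11.80 in interphase transfer.

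Few genes were called between genomeless and interphase transfer embryos. The median SD per gene in these groups was 0.50 and 0.51, the largest of the 8 groups. Of 8527 genes 78 passed (0.915%), 49 higher in interphase transfer (0.575%) and 29 lower (0.34%), and 1132 had an unadjusted p below 0.05. Activated genes had a median difference of 0.01 between these groups, with 7 higher and 5 lower, and lost genes 0.18, with 21 higher and 6 lower. Genomeless arrays A and B detected 31.8% and 14.0% of activated genes, so differences below the lowest detected levels could not be seen. Each interphase transfer array shared a chip with a genomeless array. The bright pair correlated at 0.908 over genes and the dim pair at 0.675, and pairs on different chips at 0.612 and 0.647. Without interphase transfer A the count was 753. Rpp25, a subunit of RNase P, was at 8.48 and 12.25 in interphase transfer, undetected at 6.13 and 5.83 in genomeless embryos and at 10.42, 11.05 and 11.06 in drug controls. It was higher than in genomeless embryos by 4.39 on the log2 scale (adjusted p = 0.042) and higher than in interphase zygotes by 4.06 (0.00469). The ubiquitin ligase gene Rnf152 was undetected at 5.96 and 5.90 in interphase transfer against 9.92 and 11.17 in genomeless embryos (limma, adjusted p = 0.000121), and it was undetected in drug controls as well.

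Stress and cell death genes were called about as often as all genes. Of 34 p53 target and apoptosis genes 6 fell (17.6%, against 17.1% of all genes) and 3 rose (8.82%, against 9.51%), with a median of 0.03. Casp6, an executioner caspase, was at least 3.76-fold lower (adjusted p = 0.000642). Cdkn1a, the p53 target that inhibits cyclin-dependent kinases, was at 9.31 and 6.28 in interphase transfer and 9.85, 10.42 and 10.34 in drug controls (-2.32 ± 0.80, 0.0448), a call lost when interphase transfer B or either drug control sample was left out. Interphase transfer B did not detect Cdkn1a, and with undetected values at the floor the difference was -1.44.

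Markers of other cells were read on each array. The summed scaled signal of 16 epidermal markers on the array was 568.9 in interphase transfer A, 6540.9 in interphase transfer B and 181.6 to 279.7 in drug controls. It was 3937.3 and 6723.0 in the genomeless embryos. Array B detected 3 of the 16, S100a6 at a log2 level of 12.38 against 6.59 to 6.79 in drug controls, Krt17 at 9.84 against 6.27 to 6.38, and Sfn at 8.69 against 7.80 to 8.06. Array A detected none of these and 1 other marker. Sfn was also detected on every drug control array and S100a6 on drug controls A and C. None of the 7 tested epidermal genes passed the test and their median log2 difference was 0.08. The part of this signal in other results was not tested. Of 17 fibroblast markers, 3 were detected on each interphase transfer array and 1 on each drug control array, with sums of 264.7 and 741.6 against 236.5 to 345.8, and none of 8 tested passed. Of 16 cumulus and granulosa markers, 1 was detected on each interphase transfer array (127.2 and 388.7) and 1 or 2 on each drug control array (1685.2 to 1818.9). Amhr2, listed there, was an activated gene at 10.71 to 10.86 in drug controls and at least 9.72-fold lower in interphase transfer (adjusted p = 3.97e-07). Blood markers had 1 of 12 detected on each interphase transfer array. Of 13 ES cell markers, some of which embryos also express, 5 and 4 were detected in interphase transfer (summed scaled signal 8056.8 and 2595.6), against 6 to 7 in drug controls (4759.1 to 5299.8). Of 12 trophectoderm markers 4 and 3 were detected (4169.6 and 1267.5), against 3 to 4 in drug controls (2289.0 to 2830.6).

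The count of called genes depended on how the spread was estimated. Fitting only the 2 groups gave 923 genes, normalising and fitting the 5 arrays alone 956, and weighting arrays by quality 1181. Among the genes named above, the fit of only the 2 groups ended the calls of Obox6, Kdm5b, Ddx47, Rps3, Rps3a1, Ldhb, Nanog, Nr5a2, Dab2, Cdx2, Nlrp9c, Tdrd12, Tent4a, Hsd3b7, Fndc3a, Rit2, Senp6 and Cdkn1a. Median scaling also ended those of Eif1a, Kdm5b, Dab2, Cdx2 and Cdkn1a, and array weights those of Cpeb1, Igf2bp3, Tent4a, Ldhb, Nanog, Dab2 and Cdx2. Setting undetected values at the floor ended those of Eif1a, Kdm5b, Nanog and Cdx2, and leaving out the further background correction those of Uchl1, Tubb4b, Cdx2 and Cdkn1a. Leaving out interphase transfer A, B, drug control A or drug controls B and C gave 2431, 2140, 1441 and 1314 genes. With interphase transfer B alone 68.1% of activated genes were lower and 29.6% of lost genes higher, and with A alone 71.0% and 33.8%.

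**Figure D5:**
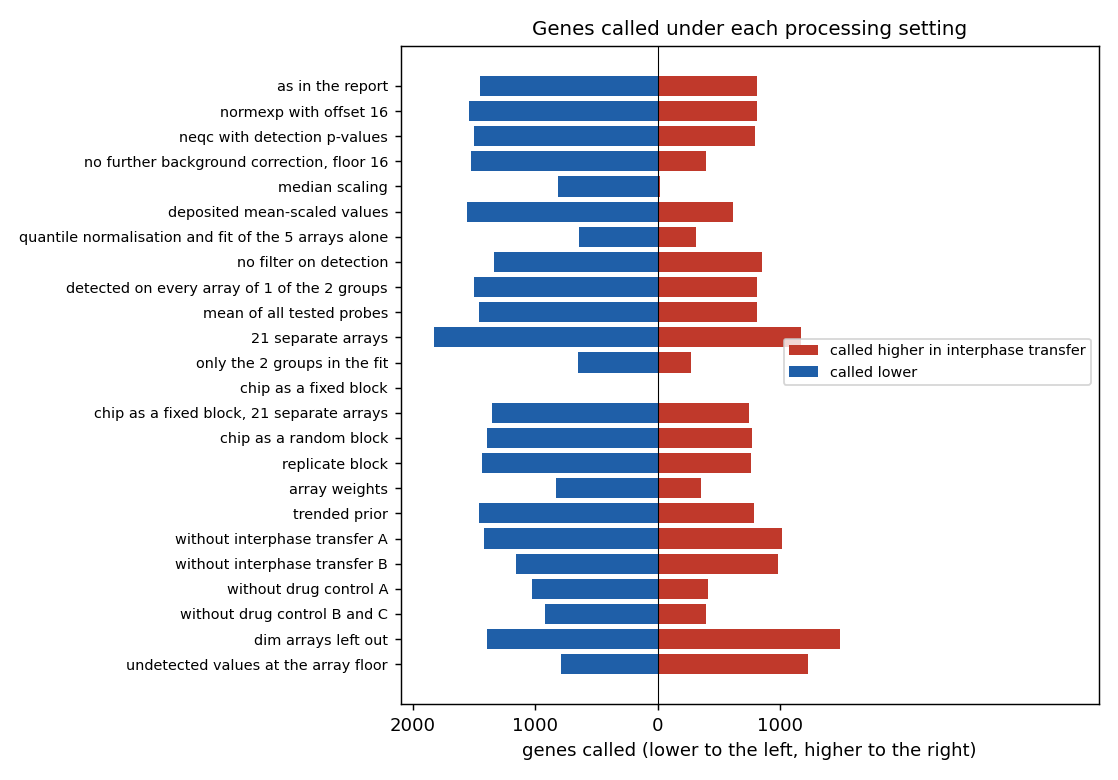
Number of genes called higher (red, to the right) and lower (blue, to the left) in interphase transfer than in drug controls under each processing setting, with the setting of the report on top. Counts range from 0 with chip as a fixed block on averaged samples to 2996 with 21 separate arrays, and median scaling leaves 15 higher.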

How the data were processed

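RNA of 21 mouse samples was measured on Illumina bead arrays of 24613 probes, after PicoPure isolation, Illumina total prep amplification and biotin labelling per the labels' protocols. The authors deposited an intensity for each probe, already background-subtracted and not normalised between arrays, with a detection p-value beside it, as the deposited values themselves show. The submitters' processing notes name GenomeStudio without a version. The deposited processed intensity is the same signal times 1 factor per array (mean 198.09), and it was used as an alternative. The sources used here do not state tool settings.

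In R 4.3.3, limma 3.58.1 corrected background (normexp, offset 50), made the distributions of the arrays equal by quantile normalisation, and signals were taken to log2. A probe was kept if 2 or more arrays gave it a detection p under 0.01, as 11541 did. The brightest kept probe on average stood for its gene (8527 genes, among which 1377 had several kept probes). Of all probes, 20984 had 1 gene symbol, 1 had several and 3628 had none in the platform annotation. Repeat arrays (SD of log2 differences under 0.2) were averaged, which left 19 samples. One mean per group was fitted to all 8 groups (11 residual degrees of freedom), and limma's moderated test with Benjamini-Hochberg adjustment within each comparison called genes at an adjusted p below 0.05. An exact permutation test of 2 samples against 2 cannot go below p = 0.333. A gene undetected on every array of a group has only a bound there, set against the lowest detected signal of each array. Differences given with an SE can include an array that did not detect the gene, where its value is background. Signal over background, and not counts, limits precision.

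Members and lists were chosen with earlier results of these data known. Named genes are the 8 largest measured differences and the 6 largest bounds in each direction, up to 4 called members of each of 25 lists, a preset group, and the 6 largest against genomeless embryos. Caution applies to Dppa4, Klf4, Nasp and Ddx39b, whose probes disagreed and which are not reported, and Ccnb1, Trp53 and Hspa8 had no tested probe. Krt17, S100a6, Sfn, Khdc3, Cnot10 and Cdc25b fall outside that rule and were named after their values were seen. One gene that met the rule is not reported here. The fit was tested on simulated data. Figures were drawn with matplotlib . No column of the files was left unmapped.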

Additional observations from a re-analysis of the deposited data

How the results depend on the processing

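None of the 110 called genes among those chosen by the naming rule changed sign under the alternatives, while 11 of the 16 that were not called did. Over all of them, 2605 of 2896 values kept their side of the threshold, 275 lost the call and 16 gained one. Of 574 list medians 43 changed sign, 13 of them in lists whose median lay further from 0 than the spread between arrays. With chip as a fixed block on averaged samples no gene was called in either direction (0, with 0 activated lower and 0 lost higher), by limma, and the block also left 0 against mitotic zygotes and 26 against genomeless embryos; standard errors were larger there by construction, since few samples tie the chips together. The same block on 21 separate arrays was chosen after seeing the data.

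Genes called in all, higher and lower were 831, 15 and 816 with median scaling, 956, 313 and 643 with the 5 arrays alone, 923, 273 and 650 with only the 2 groups and 1181, 353 and 828 with array weights. Without further background correction 390 were higher, without the dim arrays 1487 against 1394 lower, and with undetected values at the floor 1227 higher and 789 lower, so that higher genes were the larger number in these last settings. Leaving out 1 sample gave 1314 to 2431 genes in all, 396 to 1015 higher and 918 to 1416 lower, with 1441 and 414 higher without drug control A. Lost genes higher numbered 216 without further correction, 10 with median scaling, 169 with the 5 arrays, 148 with 2 groups and 189 with weights, and 214 to 372 when leaving out 1 sample (227 without drug control A). Activated genes lower numbered 497 with the 5 arrays, 500 with 2 groups and 564 at the floor.

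The median of activated genes was -2.88 with offset 16, -3.11 with neqc, -3.92 without further correction, -2.21 with median scaling, -3.65 in the mean-scaled values, -2.18 with the 5 arrays, -2.16 with all probes averaged, -2.44 with the chip block and -1.51 at the floor, a setting that also raised the median of all genes to 0.78. The median of lost genes was 1.69 among genes detected on every array of a group, a setting that moved the median of all genes to -0.58.

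Against genomeless embryos 0 genes were called with median scaling, 209 with 21 separate arrays and 89 to 753 when leaving out 1 sample; against M phase transfer 1622 and against interphase zygotes 923 with median scaling; against mitotic zygotes 646 with median scaling, 1847 with separate arrays and 556 to 1911 when leaving out 1 sample. With the replicate letter as a block 2200 genes were called against drug controls and 28 against genomeless embryos. The deviations of same-lettered samples correlated at 0.26 over genes in a design of only 2 letters, so the letters were not taken as pairs.

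Those 13 were of cumulus markers (-0.0817 without further correction, -4.47 among genes detected throughout a group), fibroblast markers (-0.0874 with median scaling, -0.0384 without the dim arrays, and -0.0384 to 0.35 when leaving out 1 sample), epidermal markers (-0.45 among genes detected throughout a group), pluripotency regulators (0.0238 with the chip block on separate arrays, 0.72 at the floor), glycolysis (-0.0303 without interphase transfer A, and up to 0.76 without another sample), DNA replication (0.0063 at the floor), M phase (0.15), heat shock (0.27) and nuclear pore (0.23), the last 3 also at the floor. The other 30 were of chromatin (-0.17 in the report, up to 0.59 at the floor), p53 and apoptosis (0.03, down to -0.71 among genes detected throughout a group), tubulins (0.05, down to -0.41 without further correction), trophectoderm, ES cell and blood markers. The cause of these shifts was not tested.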

Other observations

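Some preset or rule-named genes belong in no group above. Mos, the kinase that holds the egg in metaphase, was undetected at 6.55 and 5.87 in interphase transfer and at 5.91 to 6.14 in drug controls, and was below the interphase zygotes (7.09 to 8.36) by -1.65 (limma, adjusted p = 0.00319). Dppa3, a maternal factor that also marks germ cells, was at 11.31 and 10.19 against 11.82, 12.03 and 11.94 and did not pass (0.23). Psmb3, a proteasome subunit, was at 11.05 and 11.86 in interphase transfer, 9.96 to 10.77 in drug controls and 9.28 and 6.25 in genomeless embryos, and was higher than in the last group (0.0344). Rabac1, a Rab effector, was at 10.90 and 11.32 against 8.77 and 5.88 in genomeless embryos (0.0361). Leprotl1 was at 7.20 and 6.0 in interphase transfer, 6.83 to 7.22 in drug controls and 10.39 and 10.78 in genomeless embryos (0.004).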
